A study of Rattus norvegicus with 10 samples.

Results

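The miR-378 and miR-22 microRNAs (miRNAs) were examined in the rat left ventricle after an infusion of dexmedetomidine (DEX), an alpha-2 adrenergic agonist used for sedation. The set was chosen by name and held rno-miR-378a-3p, rno-miR-378a-5p, rno-miR-378b, rno-miR-22-3p and rno-miR-22-5p (written below without the rat prefix), which are 5 of the 761 miRNA probes on the chip. All 5 were detected on all 10 arrays, as were 405 of the 761 probes. The control group (n = 5) comprised male Wistar rats of 250 to 350 g that received saline, and the DEX group (n = 5) comprised rats of the same strain, sex and weight that received DEX in saline for 30 min. Per the methods, the drug was given first at a loading rate and then at a lower maintenance rate, followed by a saline washout, and RNA came from the anterior wall of the left ventricle of each heart. No ischemia was applied in the protocol for these arrays, and each array held RNA of 1 rat. The comparison asks whether the miRNA content of the heart had changed by the end of the infusion.

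A miRNA gene is transcribed as a precursor that folds into a hairpin, and both arms of the hairpin (5p and 3p) can be cut out as mature miRNAs. The mature strand is loaded into an Argonaute protein and pairs with messenger RNAs mainly through its seed, the stretch of bases 2 to 8, which lowers the stability and translation of those messengers. miR-378a lies within the gene of PGC-1 beta, a coactivator of mitochondrial and lipid metabolism, and both of its arms are known as regulators of energy use. miR-22 is abundant in heart and skeletal muscle and is known for its part in cardiac growth, remodeling and the control of Sirt1 and Hdac4.

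The mature sequences show which targets each member could address, so 4 members with an entry in RefSeq (build GRCr8) are printed 5′ to 3′, with the seed in capitals. miR-378b had no entry in the table used and is only named.
miR-378a-3p: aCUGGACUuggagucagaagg
miR-378a-5p: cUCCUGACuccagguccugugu
miR-22-3p: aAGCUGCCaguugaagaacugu
miR-22-5p: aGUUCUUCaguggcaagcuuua
The 4 seeds all differed from each other. Of the 690 miRNAs on the chip with a sequence in that table, 0 others shared a seed or a run of at least 15 bases with any of these 4 members. miR-378b was not among the 690 and could not be compared. The letters of the miR-378a-3p seed also occurred away from the seed position in miR-6333, and those of the miR-22-5p seed in miR-298-5p.

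The arms of miR-378a come from chr18:57128925-57128945 (3p) and chr18:57128962-57128983 (5p) on the minus strand, within Ppargc1b. Mir378b lies on chromosome 5 from 10729798 to 10729881, within Ncoa2, which encodes a nuclear receptor coactivator. The arms of miR-22 come from chr10:60805349-60805370 (5p) and chr10:60805387-60805408 (3p) on the plus strand, in a hairpin that overlapped no other gene in the table. The precursor of miR-22 is printed to show how its arms face each other, with both arms in capitals.
Mir22 hairpin, chr10:60805331-60805425 (+): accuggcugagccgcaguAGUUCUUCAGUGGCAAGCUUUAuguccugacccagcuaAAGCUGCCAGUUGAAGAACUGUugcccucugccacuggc
The longest perfectly complementary run between the arms was 9 bases, for miR-22 and for miR-378a alike.

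The miR-378a locus is also read from the opposite strand, where RefSeq places Mir3557. The mature strands of this gene are nearly the reverse complements of the miR-378a arms and are printed for that reason, with the bases complementary to the miR-378a arm in capitals.
miR-3557-5p, facing miR-378a-3p: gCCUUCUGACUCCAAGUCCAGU
miR-3557-3p, facing miR-378a-5p: ACACAGGACCUGGAGUCAGGAG
All 21 bases of miR-378a-3p and all 22 bases of miR-378a-5p were complementary to them.

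Signal on the array is given as a normalized signal in arbitrary units. The mean of the blank spots was taken off each spot, and the remainder was scaled so that the median of the miRNAs detected on that array is 25. The spots of the 5 members lay between 28.7 and 1375 blank SDs above the blank mean, so none was near the detection limit of 2 SD. Because probes differ in efficiency, levels of different members were not compared. A lower content per cell and fewer cells with the miRNA cannot be told apart in such bulk RNA. The arrays came from 3 slides. Slide 1 held Control 1 to 4, slide 2 held Control 5 and DEX 1 to 3, and slide 3 held DEX 4 and 5, so that only slide 2 held both groups. Array DEX 1 was the dimmest, with a median detected spot of 17.3 over blank against 35.4 to 53.5 on the other 9 arrays. The number of detected miRNAs lay between 483 and 533 per array.

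miR-378a-3p (MIMAT0003379) had a slightly higher mean in the DEX group, by less than the spread between rats. Its normalized signal was 909, 946, 772, 754 and 1105 on Control 1 to 5. On DEX 1 to 5 it was 1071, 984, 871, 890 and 1200. The groups overlapped, since Control 5 was above every DEX array except DEX 5, while the other 4 controls lay at or below 946. The means were 897 ± 143 (SD, n = 5) in controls and 1003 ± 136 (SD, n = 5) after DEX. The log2 difference, DEX minus control, was 0.16 ± 0.15 (SE, 95% interval -0.17 to 0.50; limma, adjusted p = 0.906). As a fold, this interval spans 0.891 to 1.41.

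miR-378a-5p (MIMAT0003378), the other arm of the same hairpin, varied least between rats of the 5. Its signal on Control 1 to 5 was 74.8, 73.5, 62.3, 65.1 and 74.9. On DEX 1 to 5 it was 79.6, 71.6, 63.2, 65.8 and 85.0. DEX 3 and 4 lay among the lower controls, whereas DEX 1 and 5 were above all controls. The means were 70.1 ± 5.96 in controls and 73.0 ± 9.18 after DEX (SD, n = 5 each). The log2 difference was 0.055 ± 0.14 (SE, 95% interval -0.24 to 0.35; limma, adjusted p = 0.930).

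miR-378b (MIMAT0024855), a family member encoded on another chromosome, had the highest difference of the 5, which also missed the threshold. It gave a signal of 819, 635, 550, 560 and 759 on Control 1 to 5. The DEX arrays 1 to 5 gave 772, 700, 632, 706 and 936. DEX 5 was the highest of the 10 arrays and Control 1 the second highest, and the groups overlapped. The means were 665 ± 120 in controls and 749 ± 115 after DEX (SD, n = 5 each). The log2 difference was 0.18 ± 0.16 (SE, 95% interval -0.17 to 0.53; limma, adjusted p = 0.906).

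miR-22-3p (MIMAT0000791) had nearly equal means in both groups. The signal on Control 1 to 5 was 2497, 2393, 2004, 2059 and 2935. The signal on DEX 1 to 5 was 2656, 2401, 2103, 1972 and 2738. Both the highest array, Control 5, and the lowest, DEX 4, lay outside the range of the other group. The means were 2378 ± 376 in controls and 2374 ± 335 after DEX (SD, n = 5 each). The log2 difference was 0.00010 ± 0.15 (SE, 95% interval -0.34 to 0.34; limma, adjusted p = 0.999).

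miR-22-5p (MIMAT0003152), the arm read before the loop of the same hairpin, had a small difference inside the spread between rats. Control 1 to 5 gave 190, 190, 150, 164 and 228. DEX 1 to 5 gave 220, 199, 155, 180 and 220. All 5 DEX values lay within the range of the controls. The means were 184 ± 30.0 in controls and 195 ± 27.9 after DEX (SD, n = 5 each). The log2 difference was 0.082 ± 0.16 (SE, 95% interval -0.26 to 0.42; limma, adjusted p = 0.914).

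**Figure D1:**
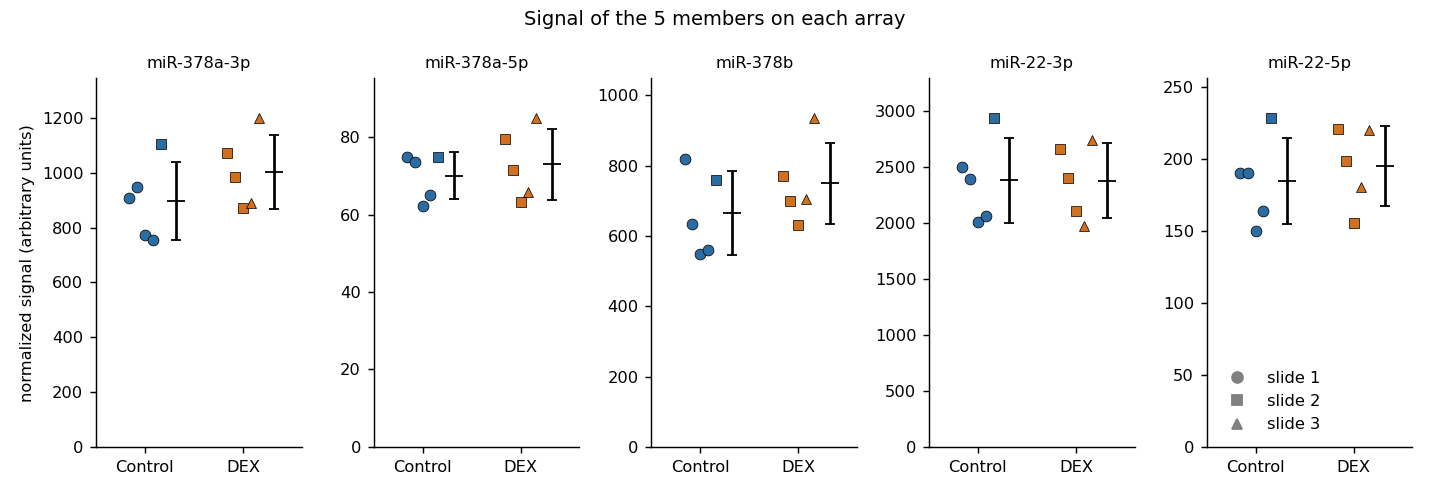
Normalized signal (arbitrary units, axes from 0) of miR-378a-3p, miR-378a-5p, miR-378b, miR-22-3p and miR-22-5p on the 5 control and 5 DEX arrays, with the slide as the marker shape and the mean ± SD beside the points. The groups overlap in every panel, and Control 5 (the blue square) is the highest control in 4 panels and second to Control 1 in the panel of miR-378b.

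Of the 5 members, 0 passed the adjusted threshold of 0.05 with limma, which was also true of all 503 miRNAs tested (0% called, with 0 members and 15 of the 503 miRNAs, or 2.98%, at an unadjusted p under 0.05). The exact permutation test of each member gave two-sided p values of 0.246 for miR-378a-3p, 0.595 for miR-378a-5p, 0.278 for miR-378b, 1 for miR-22-3p and 0.595 for miR-22-5p, where 5 against 5 arrays can reach 0.00794. All 5 differences were above 0, though that of miR-22-3p, at 0.00010 ± 0.15 (SE), cannot be given a sign. Their median was 0.082 against 0.044 over all 503 miRNAs, of which 298 (59.2%) were above 0. Groups that did not overlap occurred in 0 members and in 3 of the 503 miRNAs (0.596%). All 5 intervals lay inside a change of 1.5-fold (log2 0.58) in either direction, which gives the size of change that these 10 arrays leave possible under this scaling without a slide term.

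On slide 2, which held both groups, the differences were all below 0, with DEX 1 to 3 set against Control 5 alone. The value was -0.18 ± 0.27 for miR-378a-3p, -0.074 ± 0.26 for miR-378a-5p, -0.12 ± 0.30 for miR-378b, -0.31 ± 0.28 for miR-22-3p and -0.27 ± 0.28 for miR-22-5p (log2, SE, slide as a term in limma, adjusted p from 0.898 to 0.953). The median over all tested miRNAs was -0.19 in the same comparison. Relative to that median, miR-378a-3p stood at 0.0032, miR-378a-5p at 0.11, miR-378b at 0.068, miR-22-3p at -0.12 and miR-22-5p at -0.082. All 5 intervals with the slide term reached past 1.5-fold on the lower side. With 1 control array on this slide, an exact test cannot go below p = 0.25.

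**Figure D2:**
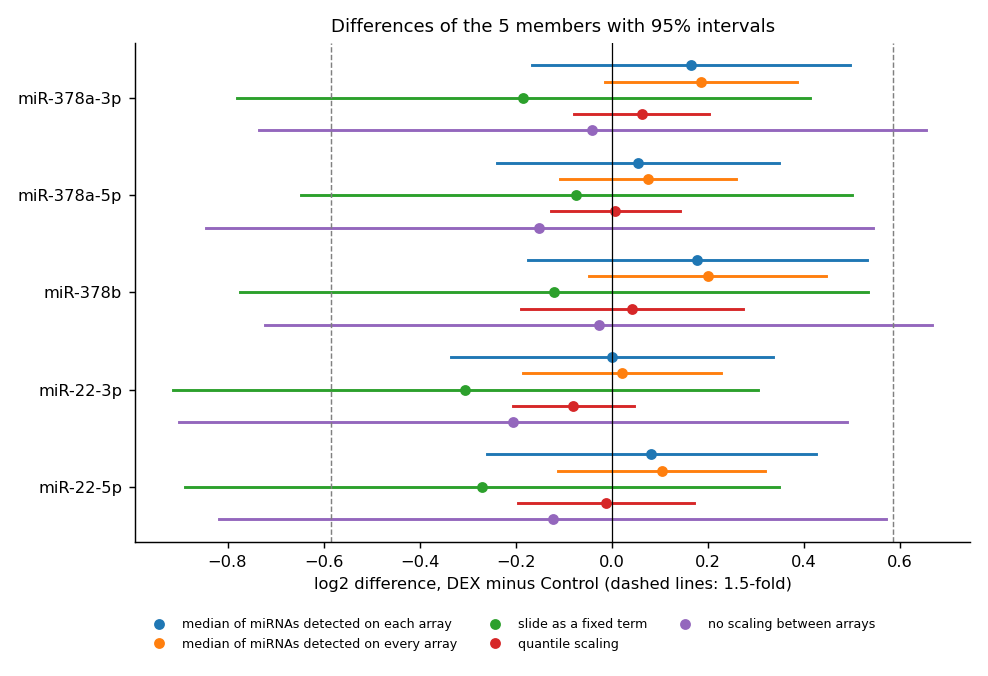
Log2 difference (DEX minus control) of each of the 5 members under 5 settings, with 95% intervals from limma and dashed lines at 1.5-fold. Every interval includes 0, and the points lie below 0 for all 5 members with slide as a fixed term and with no scaling between arrays.

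The scaling set how much the members varied between rats. Scaled on each array's own detected miRNAs, the SD within groups (log2) was 0.21 for miR-378a-3p, 0.16 for miR-378a-5p, 0.24 for miR-378b, 0.22 for miR-22-3p and 0.22 for miR-22-5p, against a median of 0.30 over the 503 miRNAs. Scaled instead on the 405 miRNAs detected on every array, as the authors' own values are, these SDs fell to 0.084, 0.051, 0.15, 0.095 and 0.11, against a median of 0.26. The SD of miR-378a-5p was then the lowest of all 503 miRNAs, and the SD of miR-378a-3p was at the 0.398th percentile.

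Under this second scaling miR-378a-3p came nearest to a separation of the groups. Its signal lay between 539 and 645 in controls and between 642 and 707 after DEX, and Control 5 alone (645) reached into the DEX range, since Control 1 to 4 lay between 539 and 586. The means were 579 ± 42.1 and 658 ± 27.7 (SD, n = 5 each), and the log2 difference was 0.19 ± 0.091 (SE, 95% interval -0.014 to 0.39). The exact permutation test gave a two-sided p of 0.0238 for this member taken alone, and limma gave an adjusted p of 0.632 over all miRNAs (unadjusted 0.0648). The exact p was 0.0635 for miR-378a-5p, 0.0635 for miR-378b, 0.738 for miR-22-3p and 0.167 for miR-22-5p. Control 5, the 1 control on slide 2, lay at 645, among DEX 1 to 3 of that slide (644 to 651), whereas Control 1 to 4 came from slide 1. Slide as a term was run under the first scaling, with the values given above.

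**Figure D3:**
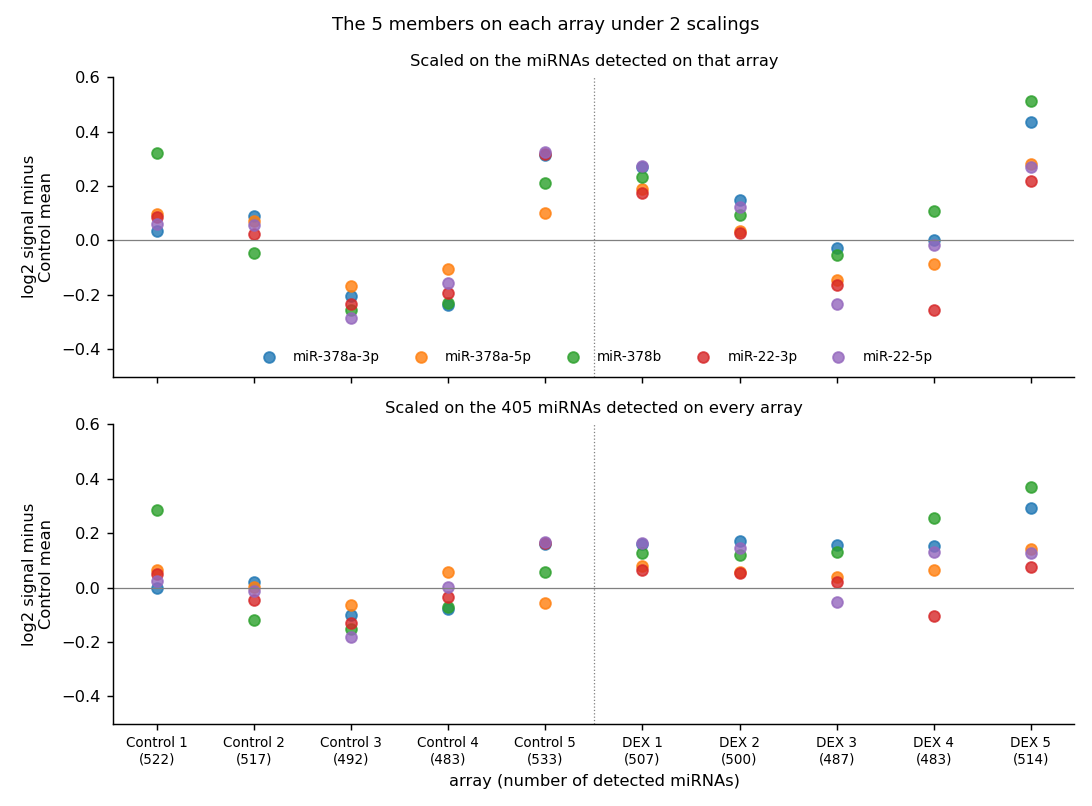
Log2 signal of the 5 members on each array relative to the control mean of each member, scaled on the miRNAs detected on that array (top) or on the 405 miRNAs detected on every array (bottom), with the number of detected miRNAs under each array. In the top panel the members rise and fall together from array to array, from Control 3 and 4 (483 to 492 detected) to Control 5 (533), and in the bottom panel this shared movement is smaller.

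Under the first scaling the 5 members rose and fell together across the 10 arrays. In all 10 pairs, Pearson's r lay between 0.753 and 0.918 and Spearman's rho between 0.733 and 0.915. Permutation p values adjusted over the 10 pairs were 0.00162 to 0.0129 for r and 0.00206 to 0.0202 for rho. They test against 0, while the median r of all pairs among the 405 miRNAs detected on every array was 0.253. These p values therefore do not show a movement particular to the members. The arms of miR-378a gave r = 0.892, and the arms of miR-22 gave r = 0.910. miR-378a-3p and miR-378b, from different chromosomes, gave r = 0.862, and miR-378a-3p gave r = 0.879 with miR-22-3p. Without a sequence for miR-378b, whether its probe and that of miR-378a-3p tell the family members apart was not checked. The r of both arm pairs lay inside the range of the other 8 pairs. Without the 2 arrays farthest from the median, r lay between 0.649 and 0.973. No slide and no group held the 6 arrays that a separate correlation needs.

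This joint movement depended on the scaling. Among the 405 miRNAs detected on every array the median r of all pairs was 0.253 under the first scaling and 0.043 when scaled on those 405 miRNAs. Under the latter the pairs of members lay between 0.187 and 0.744 (median 0.585), and 0 of 10 passed (adjusted permutation p 0.0686 to 0.608 for r). With quantile scaling they lay between -0.19 and 0.43, and 0 of 10 passed. Scaled on the spike control spots, 9 of 10 passed (r from 0.630 to 0.881). With no scaling between arrays, 10 of 10 passed (r from 0.932 to 0.979).

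The miRNAs with the most similar course over the 10 arrays are given with r as a description. For miR-378a-3p they were let-7f-5p (0.966), miR-221-3p (0.965) and miR-151-5p (0.962). For miR-378a-5p they were miR-191a-5p (0.964), miR-352 (0.946) and miR-15b-5p (0.939), and for miR-378b they were miR-33-5p (0.955), miR-7a-5p (0.941) and miR-30a-3p (0.934). For miR-22-3p they were let-7g-5p (0.975), let-7c-5p (0.973) and miR-28-5p (0.971), and for miR-22-5p they were miR-28-3p (0.980), miR-103-3p (0.973) and miR-143-3p (0.969). Scaled on the 405 miRNAs, r remained 0.939 between miR-378a-3p and miR-221-3p and 0.925 between miR-378b and miR-33-5p. It was similar between miR-22-3p and let-7g-5p (0.924) and between miR-22-5p and miR-143-3p (0.919), whereas it was 0.408 between miR-378a-5p and miR-15b-5p.

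Differences between members on the same array cancel any factor common to that array and so do not depend on the median used for scaling. They show unequal change between a pair of probes and not which of the pair changed. The arms of miR-378a, read as log2 of 3p minus 5p relative to the control mean, lay at -0.064, 0.019, -0.037, -0.13 and 0.21 on Control 1 to 5. On DEX 1 to 5 they lay at 0.081, 0.11, 0.12, 0.089 and 0.15. The DEX arrays were above Control 1 to 4 and below Control 5, so the groups overlapped. The difference was 0.11 ± 0.060 (SE, 95% interval -0.029 to 0.25; exact permutation p = 0.111, adjusted over the first 3 contrasts 0.238). On slide 2 it had the opposite sign (-0.11). Without Control 5 it was 0.16 with an adjusted exact p of 0.0238, but all controls then lay on slide 1 and all DEX arrays on slides 2 and 3. Group and slide could not be told apart in that comparison. Leaving out any other array gave adjusted exact p values of 0.238 to 0.429.

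The arms of miR-22, read in the same way, lay at 0.025, -0.034, 0.051, -0.038 and -0.0051 on Control 1 to 5. On DEX 1 to 5 they lay at -0.099, -0.094, 0.072, -0.24 and -0.053. DEX 1, 2, 4 and 5 were below all controls, and DEX 3 was above all of them. The difference was -0.082 ± 0.052 (SE, 95% interval -0.20 to 0.039; exact permutation p = 0.159, adjusted 0.238). Without DEX 3 it was -0.12 with an adjusted exact p of 0.0238. That p follows from leaving out the only DEX array not below the controls, so no conclusion is drawn from it. Leaving out any other array gave adjusted exact p values of 0.25 to 0.476. For miR-378a-3p against miR-378b the difference was -0.013 ± 0.082 (SE, 95% interval -0.20 to 0.18; exact permutation p = 0.913), with Control 1 as the lowest array at -0.29. Whether these probes tell their miRNAs apart was not checked.

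miR-378a-3p against miR-22-3p was the 1 pair of 10 whose groups did not overlap. This pair and 6 others were added after the values had been seen, so its p is a description of a chosen pair. Relative to the control mean, the log2 difference was -0.051, 0.068, 0.030, -0.043 and -0.0038 on Control 1 to 5. It was 0.096, 0.12, 0.14, 0.26 and 0.22 on DEX 1 to 5. All DEX arrays were above all controls, with DEX 4 and 5, the arrays of slide 3, the highest. The difference was 0.16 ± 0.038 (SE, 95% interval 0.077 to 0.25), with an exact permutation p of 0.00794, the smallest that the design allows, and 0.0794 when adjusted over the 10 pairs, which missed the threshold. Within slide 2 it was 0.12, with DEX 1 to 3 all above Control 5, and without the arrays of slide 3 it was 0.12. Among all 81810 pairs of miRNAs detected on every array, 1.17% had groups that did not overlap. miR-378a-3p did not overlap against 10 of its 404 partners (2.48%) and miR-22-3p against 9 (2.23%). The other 6 added pairs had adjusted exact p values from 0.278 to 0.785.

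**Figure D4:**
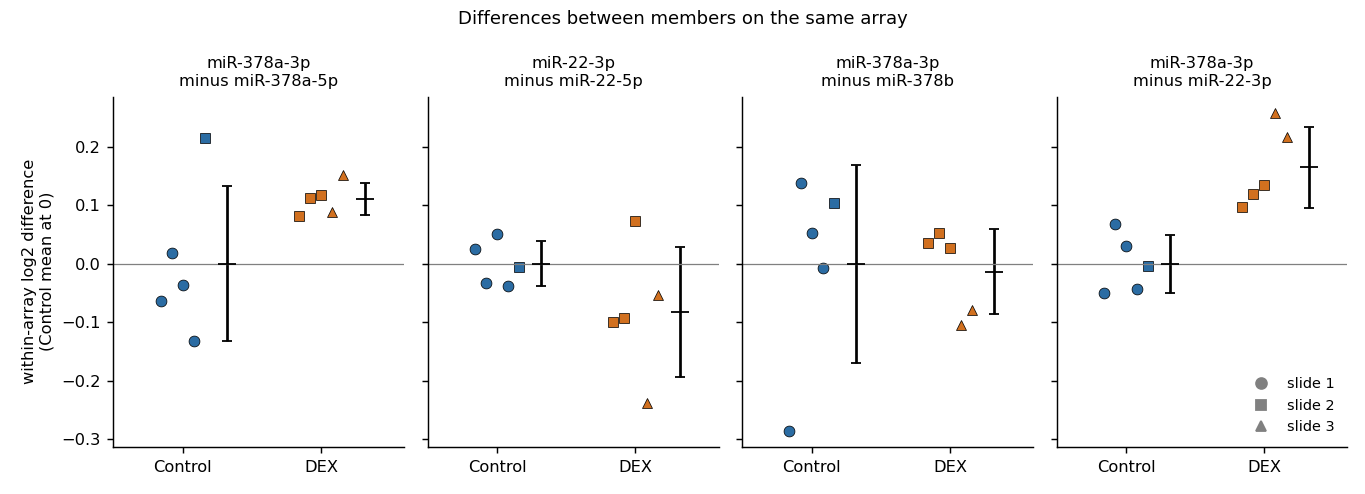
Log2 difference between members on the same array, relative to the control mean, for the arms of miR-378a, the arms of miR-22, miR-378a-3p against miR-378b and miR-378a-3p against miR-22-3p, with the slide as the marker shape and the mean ± SD beside the points. Groups overlap in the first 3 panels, while in the last panel the controls lie between -0.051 and 0.068 and the DEX arrays between 0.096 and 0.26.

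The genes beside the members were read too, and were chosen after the files had been seen. miR-3557-5p, which faces miR-378a-3p, was detected on all 10 arrays at 7.14 to 16.5 in controls and 6.58 to 12.5 after DEX, only 2.80 to 7.39 blank SDs above blank. It differed between the groups by -0.38 ± 0.24 on the log2 scale (SE; limma, adjusted p = 0.906). miR-3557-3p lay at 6.16 to 14.0 in controls and 6.27 to 19.0 after DEX (0.29 ± 0.32; limma, adjusted p = 0.906). miR-6326, whose gene ends 142 bases before Mir22, was detected on 7 of 10 arrays (0.41 ± 0.27; limma, adjusted p = 0.906). None of these 3 passed, and their values stood close to the detection limit, far below the range over blank of the members.

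The lists of related miRNAs gave the setting for the members, and 0 of their miRNAs were called in either direction (limma, smallest adjusted p 0.906 in each). Of 20 miRNAs known for lipid, glucose or mitochondrial metabolism 18 were tested, and 14 had a difference above 0, with a median of 0.13. Here miR-181c-3p, from a precursor known for a mitochondrial target, had the highest difference (0.38 ± 0.27) and miR-33-3p the lowest (-0.26 ± 0.39). miR-33-3p was detected on only 3 control and 2 DEX arrays, so its difference rests in part on values set to the detection floor of an array (3.64 to 5.09). Of 20 hypertrophy miRNAs 18 were above 0 (median 0.15), from miR-214-3p (-0.069 ± 0.14) to miR-132-3p (0.61 ± 0.24), the one miRNA of this list with an unadjusted p under 0.05. miR-132-3p was detected on only 2 control and 4 DEX arrays (3.64 to 5.48 in controls and 4.62 to 11.2 after DEX), so its difference and its place in the list also depend on that floor. Among miRNAs detected on every array, the highest of the hypertrophy list was miR-21-5p (0.37 ± 0.23) and the lowest of the metabolic list was miR-370-3p (-0.060 ± 0.12). The medians of the 5 members (0.082) and of all 503 miRNAs (0.044) lay below both list medians, without a test of that difference. Over all 503 miRNAs, 298 (59.2%) were above 0. Some miRNAs stood on more than 1 list, so the counts above 0 in the lists are not independent of each other.

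The summed markers of the tissue and of other cells overlapped between the groups. Each sum adds probes of different efficiency and is led by its brightest ones, so it does not measure the share of a cell type. All 10 heart muscle miRNAs were detected on every array and their summed signal was 41708 to 60471 in controls and 42709 to 59941 after DEX. In this sum miR-133b-3p, miR-133a-3p and miR-1-3p weighed most, with control means of 14965, 13129 and 7563. Of the 10 heart muscle miRNAs 9 were above 0 (median 0.14), from miR-133b-3p (-0.013 ± 0.15) to miR-208b-3p (0.36 ± 0.41). Over all 503 miRNAs 59.2% were above 0. The 10 blood cell miRNAs summed to 3195 to 3748 in controls and 2970 to 4619 after DEX. miR-16-5p weighed most in this sum, with means of 1579 in controls and 1782 after DEX. Of the 10 blood cell miRNAs, 8 were above 0 and their median was 0.10, while their mean was -0.0092. The highest was miR-223-3p, of myeloid cells, at 0.34 ± 0.25. The 2 below 0 were the red cell miRNAs of one gene cluster, miR-144-3p at -0.75 ± 0.36 (unadjusted p = 0.0575 with limma) and miR-451-5p at -0.59 ± 0.33 (unadjusted p = 0.0970), the second named after its value was seen, whereas miR-486, also of red cells, stood at 0.019 ± 0.14. Their ranges overlapped between the groups, at 29.0 to 90.9 in controls and 22.6 to 66.5 after DEX for miR-144-3p and at 385 to 797 and 207 to 777 for miR-451-5p, and both had a limma adjusted p of 0.906. The 9 vessel and fibroblast miRNAs summed to 10035 to 14087 in controls and 11140 to 15668 after DEX, with 8 above 0 and a median of 0.15, from miR-214-3p to miR-29a-3p (0.18 ± 0.15). The part of these cells in the values of the members was not tested.

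**Figure D5:**
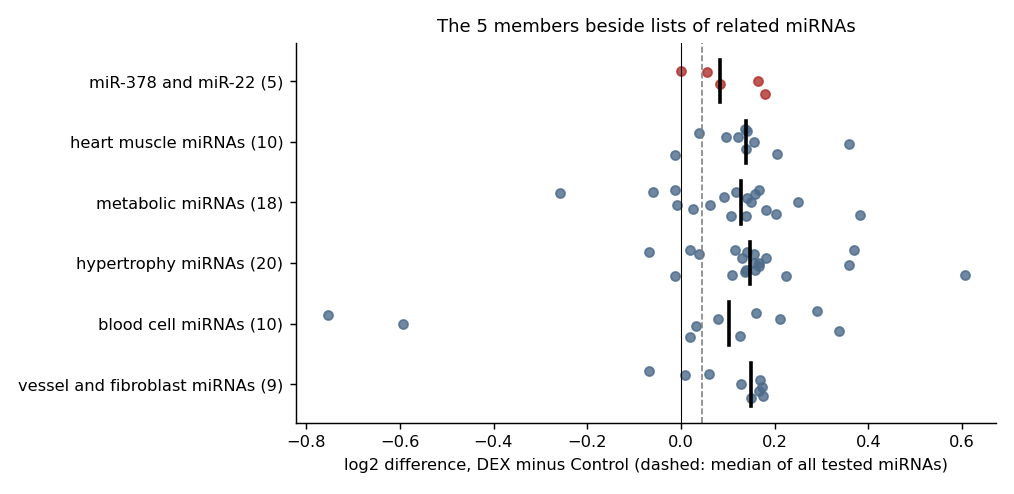
Log2 difference (DEX minus control) of the 5 members and of the tested miRNAs in the 5 lists, with the median of each row as a bar and the median of all 503 miRNAs (0.044) as the dashed line. The 5 members lie between 0.00010 and 0.18, and the bars of the lists lie between 0.10 and 0.15.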

How the data were processed

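Each array was assigned to its group and replicate by its label, and 0 columns of the series value table could not be assigned to an array. Total RNA was hybridized to one-colour 3D-Gene rat miRNA chips. Per the file headers, the scanner files give a median spot intensity, merged from 3 gain settings and without background correction. The series value table holds the authors' score per miRNA and array, whose scale was worked out from the scanner intensities. The scores were linear and rounded, with a trimmed mean of the 1664 blanks (5% off each end) subtracted and a median of 25 over the 405 miRNAs scored on all arrays (all but 1 of 5038 values within 0.51). A score was present where a spot exceeded the blank mean by 2 SD, a rule that differed in 2 of 7610 calls. Median scores per array were 15 to 18. The version of the extraction software and the miRBase release are not given in the sources used here.

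In the analysis, the trimmed blank mean was subtracted, each array was scaled to a median of 25 over its own detected miRNAs, undetected miRNAs took the lowest value detected on that array, spots marked bad were treated as missing, and values were log2-transformed. The column of local background was not subtracted because it rose with the signal (r from 0.953 to 0.984 by array), and it reached 113% of the spot for miR-378a-3p on 1 array. A miRNA had to be detected on 5 or more arrays, which left 503 for limma 3.58.1 (R 4.3.3, two-sided moderated test, Benjamini-Hochberg adjustment, threshold 0.05). The limma step was tested on simulated data with independent noise, without a slide effect or movement shared between miRNAs. The methods' t-test with a fold of 1.5 was run on these log2 values and not on the authors' scores, so its count is not that of the paper. It called 0 members and 8 miRNAs in all, and 0 after Benjamini-Hochberg adjustment. Contrasts within an array were tested by exact permutation, and correlations with 100000 permutations (Python 3.11.15, scipy 1.17.1). Slides were read from the names of the scanner files. The precision is limited by the number of arrays. Mature sequences and gene positions were taken from RefSeq (GRCr8), where 690 of 761 probes and 4 of 5 members matched by name.

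The 5 members, the lists and the rule for naming were chosen with earlier results of these data known. Named are the 5 members, the 3 tested miRNAs with the highest Pearson correlation to each, miRNAs sharing a seed or at least 15 bases with a member, and the highest and lowest difference in each list. Alternatives covered background, scaling, detection, the test, slides, a replicate block and leaving out arrays.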

Additional observations from a re-analysis of the deposited data

Results flagged for a closer look

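In 30 groups of 5 arrays examined (5 members and 10 within-array differences, in controls and after DEX), 2 held an array far from the other 4, where chance gives about 1 group in 20, or 1.5 of 30. For miR-378a-5p minus miR-22-3p, Control 5 lay at -5.29 (log2) and the other controls between -5.06 and -4.98, a gap of 0.750 of the range of the group against a critical value of 0.71. For miR-378b minus miR-22-3p, Control 1 lay at -1.61 and the other controls between -1.95 and -1.87, a gap of 0.752 of the range. Each value combines probes of different efficiency, so only its spread can be read.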

How the results depend on the processing

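The count of members called was 0 under all 29 alternatives, and the count over all miRNAs was 0 under all 30 (limma, smallest adjusted p 0.0609 to 0.992), with 7 to 36 miRNAs at an unadjusted p under 0.05 against 15, and 36 without Control 5. Without Control 5, group and slide could not be told apart, since no slide then held both groups. Signs of the small differences were not stable, and the cause was not tested. With normexp on the background column they became -0.97 (miR-22-3p), -0.083 (miR-22-5p), -0.46 (miR-378a-3p), -0.048 (miR-378a-5p) and -0.20 (miR-378b). With no scaling between arrays, where the median of all miRNAs was -0.16, they were -0.21, -0.12, -0.041, -0.15 and -0.027 in that order. With slide as a fixed term or slide 2 alone, where that median was -0.19, they were -0.31, -0.27, -0.18, -0.074 and -0.12. With no background correction miR-22-3p was at -0.093, miR-22-5p at -0.0013 and miR-378a-5p at -0.0029. miR-22-3p was also at -0.080 with quantile scaling (miR-22-5p -0.012), -0.016 with detection at 3 SD and -0.026 with array weights. Leaving out 1 array gave -0.058 to 0.080 (miR-22-3p), 0.011 to 0.16 (miR-22-5p), 0.098 to 0.24 (miR-378a-3p), -0.0023 to 0.10 (miR-378a-5p) and 0.095 to 0.26 (miR-378b).

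Within arrays, normexp turned miR-378a-3p minus miR-22-5p to -0.38, miR-378a-3p minus miR-378a-5p to -0.41, miR-378a-5p minus miR-22-5p to 0.035, miR-378a-5p minus miR-378b to 0.16 and miR-378b minus miR-22-5p to -0.12. On slide 2, miR-378a-3p minus miR-378a-5p was -0.11, miR-378a-5p minus miR-22-5p 0.20 and miR-378a-5p minus miR-378b 0.046. With quantile scaling miR-378a-3p minus miR-378b was 0.020 and miR-378a-5p minus miR-22-5p 0.020. Without slide 3, under the first scaling, miR-378a-3p minus miR-378b was 0.038. Leaving out 1 array gave 0.077 to 0.16 for the arms of miR-378a, -0.12 to -0.043 for those of miR-22, -0.085 to 0.021 for miR-378a-3p minus miR-378b, -0.00024 to 0.077 for miR-378a-5p minus miR-22-3p and -0.084 to 0.0017 for miR-378a-5p minus miR-22-5p. For miR-378a-3p minus miR-22-3p it gave 0.14 to 0.18. The adjusted exact p was 0.0397 without Control 5 or without DEX 3, and 0.0794 to 0.159 without any other array. Without Control 5, no slide held both groups. The adjusted exact p was 0.357 without slide 3 and 0.3125 with the replicate block, where the smallest possible exact p is 0.0625. Normexp gave 0.51 (exact p = 0.262).

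Medians of the lists with no scaling were -0.10 (blood cell), -0.067 (heart muscle), -0.078 (metabolic), -0.057 (hypertrophy, -0.010 with normexp) and -0.057 (vessel and fibroblast, -0.066 with normexp). With slide as a fixed term they were -0.0055 (blood cell), -0.22 (heart muscle), -0.19 (hypertrophy), -0.26 (metabolic) and -0.096 (vessel and fibroblast). The count of correlated pairs of members was 0 with quantile scaling and on the 405 miRNAs, and 1 with the series value table. Under the other alternatives it was 9 or 10. Replicate numbers did not pair the arrays (correlation of same-numbered arrays -0.080 to 0.11). The replicate block left 0 members and 0 miRNAs called (limma, smallest adjusted p 0.0609) and put 35 miRNAs at an unadjusted p under 0.05.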
